A study of Mus musculus with 11 samples.

Results

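The heterogeneous nuclear ribonucleoproteins (hnRNPs) and the serine/arginine-rich (SR) proteins are the main families of RNA-binding proteins that decide which exons enter an mRNA. They were taken here as every protein-coding gene of the deposited tables named *Hnrnp* or *Srsf* followed by letters or digits, without *Hnrnpk*, which gave 30 of 26283 genes, 19 hnRNP genes and 11 SR genes. hnRNPs coat nascent transcripts and often keep an exon out of the mRNA, whereas SR proteins bind exons through RNA recognition motifs (RRMs) and use a tail of arginine-serine repeats to recruit the spliceosome. The balance of both families varies between tissues and is known to shift exon choice in tumors, *Srsf1* being able to transform mammary epithelial cells when overexpressed. PCBP1 is itself an hnRNP, also called hnRNP E1, that binds C-rich RNA.

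RNA was sequenced from 11 mammary tumors of female C57BL/6 mice at 18 weeks of age. The PyMT *Pcbp1*–/– group (n = 6) carried MMTV-PyMT, MMTV-Cre and floxed *Pcbp1*(fl/fl) alleles, and the control PyMT *Pcbp1*+/+ group (n = 5) carried MMTV-PyMT and MMTV-Cre with *Pcbp1*(wt/wt) alleles, so that the oncogene (polyomavirus middle T antigen) and the recombinase were common to all tumors. MMTV-Cre deletes *Pcbp1* in mammary epithelial cells, and the other cells of a bulk tumor keep the gene. In such bulk samples, fewer cells of a type and less RNA per cell cannot be told apart.

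The deposited estimated counts summed to between 10543200 and 14092200 per tumor. Totals were higher in PyMT *Pcbp1*–/– tumors, with a median of 13135800 against 10975700 (two-sided exact permutation test, p = 0.0173, 0.0292 after Benjamini-Hochberg adjustment over 3 library measures). Mitochondrial transcripts took 7.20% ± 0.623 (SD, n = 6) of the counts in PyMT *Pcbp1*–/– and 5.99% ± 0.774 (SD, n = 5) in PyMT *Pcbp1*+/+ tumors, with p = 0.0195 in the same exact test and 0.0292 after adjustment. The exact p of this share was 0.0524 without PyMT *Pcbp1*+/+ replicate 1, and the same without replicate 3. Structural RNAs of nuclear genes took 27.3% ± 1.62 (SD, n = 6) and 27.0% ± 4.93 (SD, n = 5). This difference was within the spread of the tumors (exact p = 0.879). Group means are given as PyMT *Pcbp1*–/– against PyMT *Pcbp1*+/+ throughout, and levels as the deposited CPM, the estimated count per 1000000 counts of the tumor, and the part of these library measures in the values below was not tested.

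The targeted gene followed the labels. *Pcbp1* (ENSMUSG00000051695.6, chromosome 6, 86524492 to 86526321 of GRCm38) lay from 15.4 to 33.6 CPM with a median of 20.9 CPM in PyMT *Pcbp1*–/– tumors and, in the order of replicates 1 to 5, at 268, 271, 225, 219.5 and 259 CPM in PyMT *Pcbp1*+/+. Every PyMT *Pcbp1*–/– tumor was below every PyMT *Pcbp1*+/+ tumor, and the log2 fold change was -3.43 (SE 0.19, adjusted p = 4.72e-06) in edgeR's quasi-likelihood test. Its relatives in the KH-domain family had no adjusted p under 0.05: the log2 fold changes were 0.025 for *Pcbp2*, 0.47 for *Pcbp3*, 0.29 for *Pcbp4* and 0.0067 for *Hnrnpk*.

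The comparison of PyMT *Pcbp1*–/– with PyMT *Pcbp1*+/+ tumors asks whether loss of an hnRNP in the epithelium goes with other mRNA levels of the remaining splicing factors. No hnRNP or SR gene was called higher or lower: all 30 members were among the 19232 genes left by edgeR's filter on low counts, and 0 had a Benjamini-Hochberg adjusted p under 0.05 over those genes. In the same test 0.608% of all genes were called higher and 1.66% lower, so that a list of this length would hold few calls at the background rate. At an unadjusted p under 0.05, 3 members were higher (*Hnrnpa1*, *Hnrnpd*, *Hnrnpc*) and 3 lower (*Srsf5*, *Srsf6*, *Srsf11*), against 8.19% higher and 10.5% lower among all genes. These counts moved with the setting: 2 to 5 were higher and 1 to 4 lower with a tumor left out, with 1 lower in 7 of these 11 fits and with library size only, and limma-voom gave 8 higher and 4 lower. The shares of 8.19% and 10.5% are edgeR's with all 11 tumors. Those of limma-voom and the other fits at this threshold are not given here, so its 8 and 4 cannot be set against a background. Of 10 other settings, apart from the fits with a tumor left out, 2 gave calls among the members. Among these 10, the fit that matched tumors by their replicate number used 10 of the 11 tumors. DESeq2 called 1 member higher, *Hnrnpd*, and limma on log2 CPM called 0, whereas limma-voom with sample quality weights called 4 higher (*Hnrnpa1*, *Hnrnpc*, *Hnrnpd*, *Hnrnpm*) and 3 lower (*Srsf5*, *Srsf6*, *Srsf11*). Over all genes, DESeq2 called 476 higher and 700 lower, or 4.47% of 26283 genes, of which 20614 had an adjusted p. Limma-voom called 968 higher and 1190 lower, or 11.2% of 19232 genes.

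Estimates were small in both families. The median log2 fold change was 0.020 over the members, 0.030 over the hnRNP genes and 0.0019 over the SR genes, beside -0.00012 over all genes tested. The sign of the SR median was not stable: it was below 0 with upper-quartile factors in place of TMM (-0.0035), with limma on log2(CPM + 1) (-0.0024) and in 5 of 11 fits with a tumor left out, over which it ranged from -0.058 without PyMT *Pcbp1*–/– replicate 5 to 0.018. Without PyMT *Pcbp1*+/+ replicate 1 it was -0.045, without PyMT *Pcbp1*+/+ replicate 4 -0.047, without PyMT *Pcbp1*–/– replicate 4 -0.022 and without PyMT *Pcbp1*–/– replicate 2 -0.0091. The hnRNP median ranged from 0.0023 to 0.065 in the same fits. Estimates were positive for 12 of 19 hnRNP genes and 6 of 11 SR genes, and these counts were 11 and 5 with upper-quartile factors. With a tumor left out, 10 to 13 hnRNP genes and 4 to 6 SR genes were positive, with 4 SR genes without PyMT *Pcbp1*–/– replicate 4 or 5 or PyMT *Pcbp1*+/+ replicate 1 or 4. The estimates ran from -0.25 (*Srsf11*) to 0.40 (*Hnrnpa1*), and 28 members differed by less than 1.2-fold. For 27 of the 30 members the unadjusted 95% interval of the fold change stayed within 1.5-fold in either direction. The exceptions were *Hnrnpa1* and *Hnrnpd*, whose intervals reached 1.62-fold and 1.51-fold higher, and *Srsf12*, the least abundant member, whose interval reached 1.58-fold. The median standard error of a member was 0.097 on the log2 scale, against 0.17 over all genes tested.

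**Figure D1:**
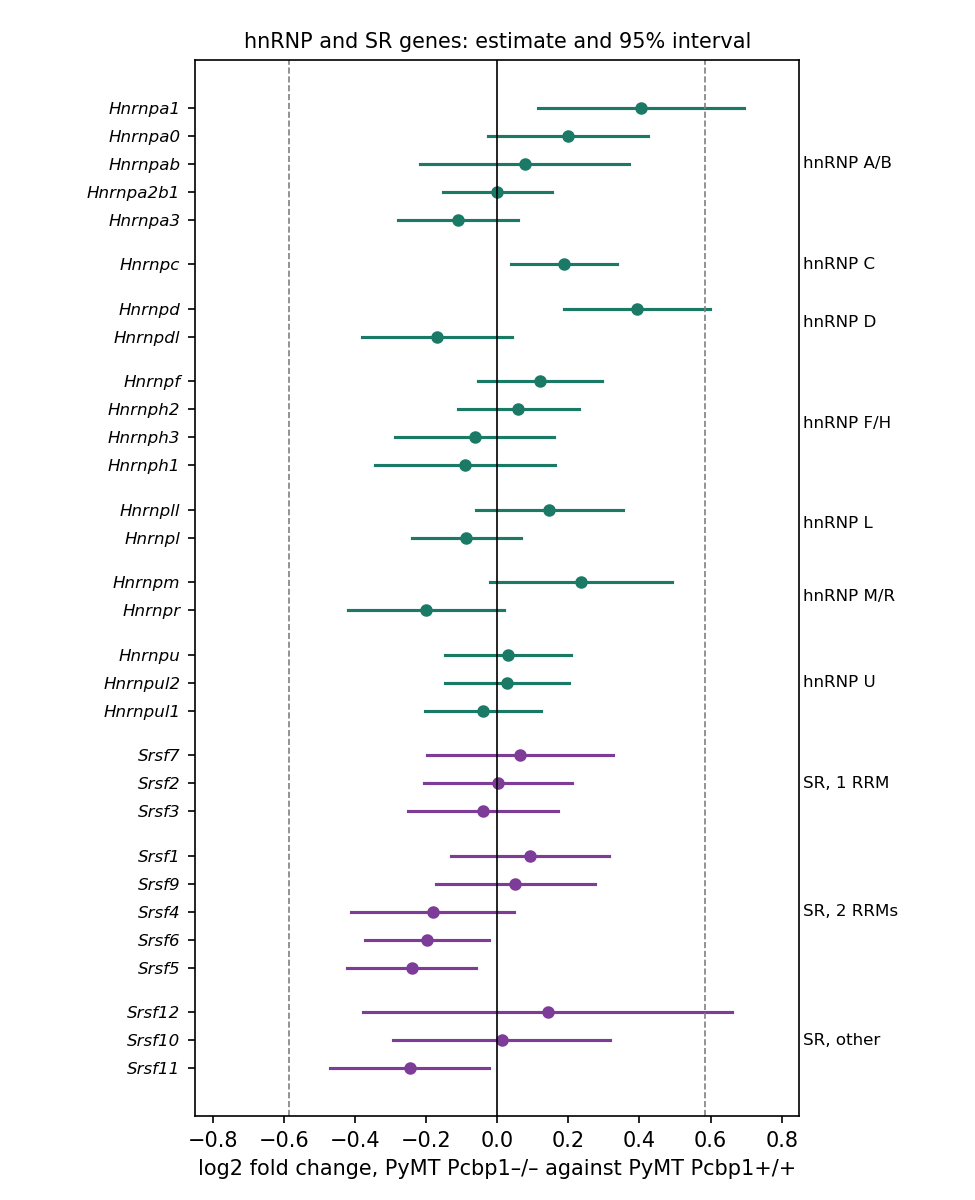
Log2 fold change of each of the 30 hnRNP and SR genes in PyMT *Pcbp1*–/– (n = 6) against PyMT *Pcbp1*+/+ (n = 5) tumors, by subfamily; points are edgeR estimates, horizontal lines unadjusted 95% intervals, and dashed lines mark a change of 1.5-fold. Estimates lie between -0.25 and 0.40, and none had an adjusted p under 0.05.

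Among the A/B hnRNPs, the classical antagonists of SR proteins, *Hnrnpa1* had the most positive estimate of all members. *Hnrnpa1* (ENSMUSG00000046434.16, chromosome 15, 103240432 to 103246692), which binds exonic and intronic silencers and can block exon inclusion, lay from 129.6 to 207 CPM with a median of 163 CPM in PyMT *Pcbp1*–/– tumors and, in the order of replicates 1 to 5, at 123, 149, 111, 112 and 117 CPM in PyMT *Pcbp1*+/+. Of the 6 PyMT *Pcbp1*–/– tumors, 4 were above the highest PyMT *Pcbp1*+/+ tumor, and replicates 1 and 2 lay within the range of the other group. The log2 fold change was 0.40 (SE 0.13, adjusted p = 0.133) with edgeR. This gene has processed pseudogene copies, and the copy listed as *Hnrnpa1l2-ps* had a mean of 0.890 CPM, so reads may have been divided between copies. *Hnrnpa0*, a gene without introns whose product binds AU-rich mRNA ends, averaged 223 ± 19.8 (SD, n = 6) against 195 ± 32.2 (SD, n = 5) CPM, with a log2 fold change of 0.20 (SE 0.10, adjusted p = 0.324). *Hnrnpa2b1*, involved in splicing and in mRNA transport, had the most counts of the subfamily and averaged 264 ± 11.2 (SD, n = 6) against 264 ± 14.8 (SD, n = 5) CPM. Its log2 fold change was 0.00050, with an unadjusted 95% interval from -0.15 to 0.15, and the sign was negative with upper-quartile factors (-0.0061). *Hnrnpab* and *Hnrnpa3* had log2 fold changes of 0.077 and -0.11.

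*Hnrnpd* was the member with the lowest adjusted p and the only one whose groups did not overlap. It encodes AUF1, which binds AU-rich elements and promotes decay of the mRNAs that carry them. *Hnrnpd* (ENSMUSG00000000568.15, chromosome 5, 99955935 to 99978938) lay from 34.4 to 44.4 CPM with a median of 35.6 CPM in PyMT *Pcbp1*–/– tumors and, in the order of replicates 1 to 5, at 34.1, 31.4, 25.6, 27.4 and 23.4 CPM in PyMT *Pcbp1*+/+. Every PyMT *Pcbp1*–/– tumor was above every PyMT *Pcbp1*+/+ tumor, by 34.4 against 34.1 CPM at the nearest pair, and PyMT *Pcbp1*–/– replicate 2 was the highest. Such a separation with PyMT *Pcbp1*–/– higher was found for 1.27% of all genes tested, and with PyMT *Pcbp1*–/– lower for 2.02%. The log2 fold change was 0.39 (SE 0.095, adjusted p = 0.0525), just above the threshold of 0.05, and edgeR's adjusted p was 0.0435 without PyMT *Pcbp1*+/+ replicate 2. Over the 21 alternatives, which are the 10 other settings and 11 fits with a tumor left out, it ranged from 0.00559 to 0.125. Its neighbor and paralog *Hnrnpdl*, separated from it by 54.6 kb on chromosome 5, had an estimate of the opposite sign, -0.17 (SE 0.097, adjusted p = 0.371), at 91.0 ± 7.58 (SD, n = 6) against 102 ± 15.8 (SD, n = 5) CPM.

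An antisense gene, RP23-57P23.2 (99977686 to 99978858 on the plus strand of chromosome 5), overlaps the start of *Hnrnpd* over 1173 bases. It lay from 1.30 to 1.64 CPM with a median of 1.49 CPM in PyMT *Pcbp1*–/– tumors and, in the order of replicates 1 to 5, at 1.85, 2.85, 2.20, 2.04 and 2.03 CPM in PyMT *Pcbp1*+/+, the opposite direction to *Hnrnpd* and again without overlap. Its log2 fold change was -0.56 (SE 0.18, adjusted p = 0.124), which did not pass edgeR's threshold. The sources used here do not state whether counting used the strand of the stranded libraries, so the division of reads between both genes is uncertain. The antisense gene had a mean of 21.3 counts per tumor, against 402 for *Hnrnpd*. It was singled out after its values were seen among 12 genes that overlap a member. Of the 11 tested, 9 had a negative log2 fold change, 6 an unadjusted p under 0.05 and were lower, and 0 had such a p and were higher, beside 10.5% and 8.19% of all genes. With edgeR 0 had an adjusted p under 0.05. *Phykpl*, which overlaps *Hnrnpab* on the other strand, was likewise lower without overlap, with a log2 fold change of -0.47 (SE 0.13, adjusted p = 0.0879).

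*Hnrnpc*, whose product binds uridine tracts and competes there with the splice-site factor U2AF, lay from 86.2 to 98.4 CPM with a median of 89.5 CPM in PyMT *Pcbp1*–/– tumors and, in the order of replicates 1 to 5, at 89.0, 79.4, 67.6, 80.8 and 80.8 CPM in PyMT *Pcbp1*+/+. Of the 6 PyMT *Pcbp1*–/– tumors, 3 were above the highest PyMT *Pcbp1*+/+ tumor and all 6 were above the PyMT *Pcbp1*+/+ median. The log2 fold change was 0.19 (SE 0.069, adjusted p = 0.168). *Hnrnpm*, known for steering exon choice in epithelial-mesenchymal transition, averaged 93.4 ± 11.1 (SD, n = 6) against 79.2 ± 10.2 (SD, n = 5) CPM, with a log2 fold change of 0.23 (SE 0.12, adjusted p = 0.308). *Hnrnpr*, the member of the M/R group with more counts, had an estimate of the opposite sign, -0.20 (SE 0.10, adjusted p = 0.308), at 122 ± 15.7 (SD, n = 6) against 141 ± 17.0 (SD, n = 5) CPM.

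None of the remaining hnRNP genes had an unadjusted p under 0.05 with edgeR. *Hnrnph1*, which binds runs of G, averaged 271 ± 34.2 (SD, n = 6) against 288 ± 28.8 (SD, n = 5) CPM, with a log2 fold change of -0.091 (SE 0.12, adjusted p = 0.713). The other F/H genes had log2 fold changes of 0.12 (*Hnrnpf*), 0.060 (*Hnrnph2*) and -0.064 (*Hnrnph3*). *Hnrnpl*, a reader of CA repeats, averaged 136 ± 9.76 (SD, n = 6) against 144 ± 11.3 (SD, n = 5) CPM, with a log2 fold change of -0.087 (SE 0.070, adjusted p = 0.539). Its paralog *Hnrnpll*, known for exon choice in lymphocytes, had an estimate of 0.15. *Hnrnpu*, the scaffold attachment factor that ties RNA to chromatin, averaged 155 ± 14.7 (SD, n = 6) against 151 ± 9.70 (SD, n = 5) CPM, with a log2 fold change of 0.030 (SE 0.082, adjusted p = 0.879). *Hnrnpul1* and *Hnrnpul2* had log2 fold changes of -0.040 and 0.028.

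The SR proteins with a pair of RRMs held 3 of the 5 most negative estimates. *Srsf5* (ENSMUSG00000021134.17, chromosome 12, 80945504 to 80950507) lay from 160.3 to 221 CPM with a median of 185 CPM in PyMT *Pcbp1*–/– tumors and, in the order of replicates 1 to 5, at 246, 220.1, 209, 244 and 202 CPM in PyMT *Pcbp1*+/+. Of the 6 PyMT *Pcbp1*–/– tumors, 4 were below the lowest PyMT *Pcbp1*+/+ tumor, and replicates 1 and 2 lay within the other group's range. The log2 fold change of *Srsf5* was -0.24 (SE 0.083, adjusted p = 0.148). *Srsf6* (ENSMUSG00000016921.14, chromosome 2, 162931528 to 162937121), a close paralog, lay from 174 to 224 CPM with a median of 187 CPM in PyMT *Pcbp1*–/– tumors and, in the order of replicates 1 to 5, at 242, 205, 210.5, 232 and 214 CPM in PyMT *Pcbp1*+/+. Here too 4 PyMT *Pcbp1*–/– tumors were below the PyMT *Pcbp1*+/+ range, and replicates 1 and 2 were the exceptions. The log2 fold change of *Srsf6* was -0.20 (SE 0.081, adjusted p = 0.215). *Srsf4* averaged 41.2 ± 4.85 (SD, n = 6) against 46.9 ± 5.65 (SD, n = 5) CPM, with a log2 fold change of -0.18 (SE 0.11, adjusted p = 0.379), and it overlaps an annotated gene on the same strand, RP23-13A13.6, which may share its reads. Altogether 9 members overlap another annotated gene, *Hnrnpd*, *Hnrnpl*, *Hnrnpab*, *Hnrnph3*, *Hnrnpf*, *Hnrnpm*, *Srsf2*, *Srsf4* and *Srsf11*, and their counts are uncertain to that degree. *Srsf1* and *Srsf9*, the other members of the subfamily, had estimates above 0, 0.091 and 0.051.

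*Srsf11*, an SR-related factor that contacts U2AF, had the most negative estimate. It (ENSMUSG00000055436.18, chromosome 3, 158010473 to 158036639) lay from 123 to 192 CPM with a median of 133 CPM in PyMT *Pcbp1*–/– tumors and, in the order of replicates 1 to 5, at 180.0, 168, 156, 170.3 and 167 CPM in PyMT *Pcbp1*+/+. In PyMT *Pcbp1*–/– tumors, 5 values were below the lowest PyMT *Pcbp1*+/+ tumor and 1, replicate 2, was above the highest. The log2 fold change was -0.25 (SE 0.10, adjusted p = 0.225), and without PyMT *Pcbp1*–/– replicate 2 it was -0.34 with an adjusted p of 0.0264 from edgeR, within a range from 0.0264 to 0.371 over the 21 alternatives. *Srsf10*, a splicing repressor in heat-shocked and dividing cells when dephosphorylated, and *Srsf12* had log2 fold changes of 0.012 and 0.14. *Srsf12* was near the lower end of what the depth resolves, with 14 to 40 counts per tumor.

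The last SR genes are *Srsf2*, *Srsf3* and *Srsf7*, of the classical SR proteins with a single RRM. *Srsf2*, known as SC35 and a marker of nuclear speckles, averaged 275 ± 29.0 (SD, n = 6) against 274 ± 18.7 (SD, n = 5) CPM. Its log2 fold change was 0.0019, with an unadjusted 95% interval from -0.21 to 0.21, and the sign was negative with upper-quartile factors (-0.0035). *Srsf3*, which also takes part in mRNA export, and *Srsf7*, its relative with a zinc knuckle, had estimates of -0.040 and 0.063.

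**Figure D2:**
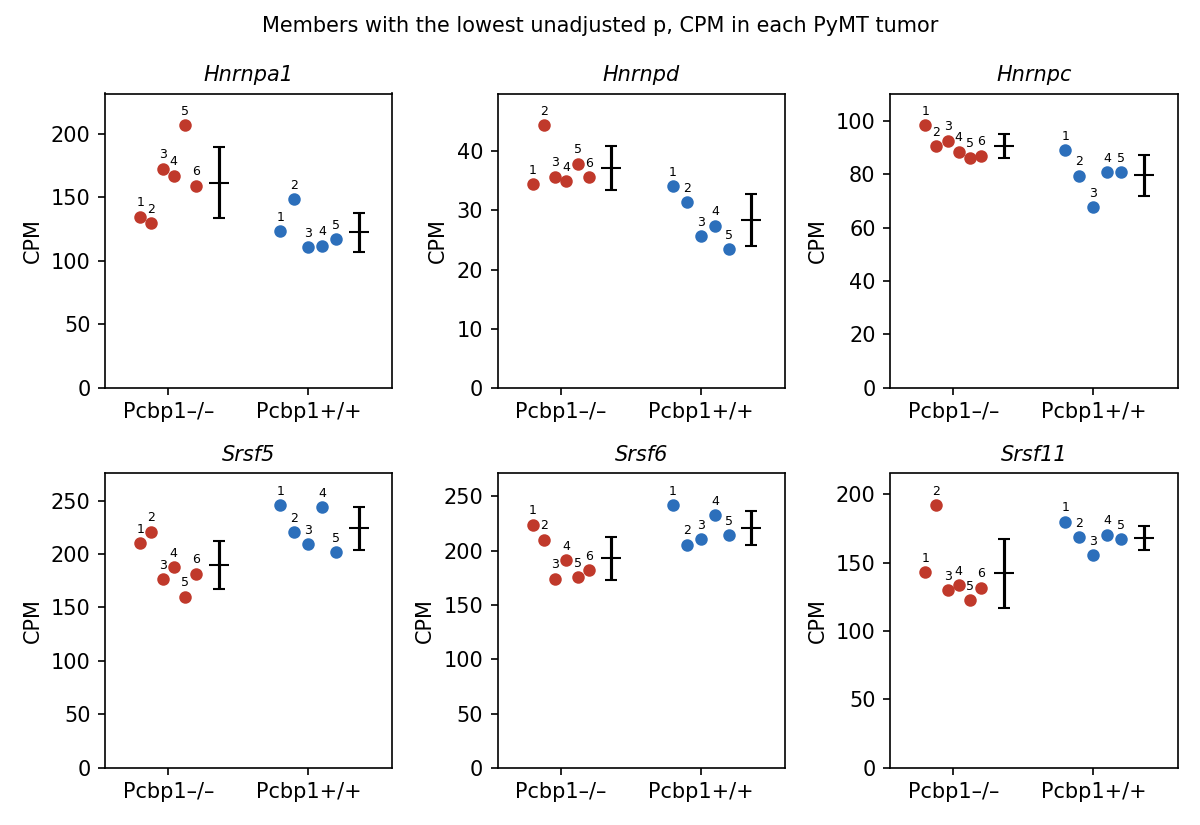
Deposited CPM of the 6 members with an unadjusted p under 0.05 in edgeR's fit of all 11 tumors, in each PyMT *Pcbp1*–/– (red, n = 6) and PyMT *Pcbp1*+/+ (blue, n = 5) tumor, numbered by replicate; bars are mean ± SD and axes start at 0. The groups overlap in all but *Hnrnpd*, where PyMT *Pcbp1*–/– tumors lie from 34.4 CPM up and PyMT *Pcbp1*+/+ tumors from 34.1 CPM down.

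The families were also compared by their summed CPM within each tumor, a ratio that no scaling factor changes. The hnRNP genes summed to 2448 ± 106 (SD, n = 6) against 2376 ± 151 (SD, n = 5) CPM. The SR genes summed to 1271 ± 62.6 (SD, n = 6) against 1359 ± 59.4 (SD, n = 5) CPM. The ratio of the SR sum to the hnRNP sum ranged from 0.492 to 0.569 in PyMT *Pcbp1*–/– tumors, with a median of 0.516, and was 0.556, 0.557, 0.576, 0.601 and 0.574 in the PyMT *Pcbp1*+/+ group, by replicate. In 5 of the 6 PyMT *Pcbp1*–/– tumors it was below every PyMT *Pcbp1*+/+ tumor, and replicate 2, at 0.569, lay inside the PyMT *Pcbp1*+/+ range. This ratio is a description of the summed levels and was not tested. Abundant genes weigh most in such sums. *Srsf5* averaged 190 against 224, *Srsf6* 193 against 221 and *Srsf11* 142 against 168 CPM. Yet 6 of the 11 SR genes had a positive estimate. *Hnrnpa1* averaged 162 against 122 and *Hnrnpa0* 223 against 195 CPM, and 7 of the 19 hnRNP genes had a negative estimate. The ratio is therefore not a change shared by all genes of a family.

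**Figure D3:**
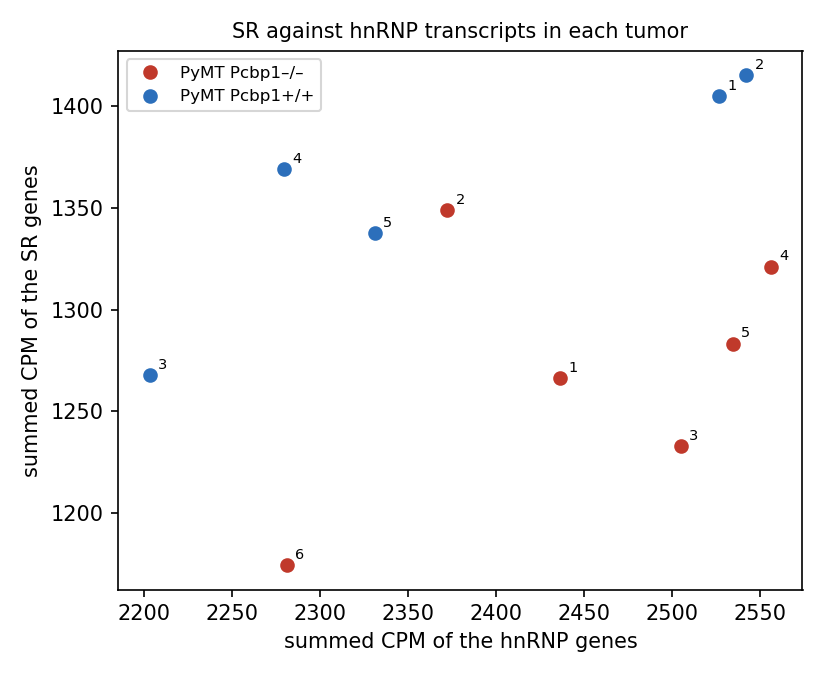
Summed CPM of the 11 SR genes (vertical) against that of the 19 hnRNP genes (horizontal) in each PyMT *Pcbp1*–/– (red) and PyMT *Pcbp1*+/+ (blue) tumor, numbered by replicate; neither axis starts at 0. PyMT *Pcbp1*–/– tumors other than replicate 2 have ratios of at most 0.520, and PyMT *Pcbp1*+/+ tumors of at least 0.556.

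Levels were compared between genes per kb of the Ensembl canonical transcript in GENCODE for GRCm39, matched by identifier for all 30 members. By mean CPM per kb over the 11 tumors, *Hnrnph1* (115), *Srsf2* (110.1) and *Srsf5* (109) stood at the top of the list. *Hnrnpab* and *Hnrnpa2b1* followed at 91.6 and 90.0 CPM per kb. The order differed by group: *Srsf5* and *Srsf2* were at 100.6 and 110.4 in PyMT *Pcbp1*–/– and at 119.0 and 109.8 in PyMT *Pcbp1*+/+ tumors. Likewise, *Hnrnpab* and *Hnrnpa2b1* were at 94.0 and 90.0 in PyMT *Pcbp1*–/– and at 88.8 and 90.0 in PyMT *Pcbp1*+/+ tumors. *Hnrnpd* was next to last at 4.30 CPM per kb, above *Srsf12* at 0.811. This rank depends on its canonical transcript of 7707 bases, and the annotation behind the counts is not known. In CPM, *Hnrnpd* at 33.2 was above *Hnrnph3* at 14.0, whose canonical transcript has 2331 bases. The spread between tumors of a group was small, with a coefficient of variation (CV, the SD over the mean) of a median 10.7% over members in PyMT *Pcbp1*–/– and 11.2% in PyMT *Pcbp1*+/+ tumors. The steadiest member was *Hnrnpa2b1* in PyMT *Pcbp1*–/– tumors (CV 4.23%) and *Srsf3* in PyMT *Pcbp1*+/+ tumors (CV 4.43%), and the widest spread was that of *Srsf12* in PyMT *Pcbp1*+/+ tumors (CV 39.9%).

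SR genes are known to limit their own expression by splicing in a poison exon, whose premature stop codon sends the transcript to nonsense-mediated decay. The same annotation lists at least 1 transcript of the decay class for 11 of 11 SR genes and 13 of 19 hnRNP genes, against 71.6% of 13624 protein-coding genes tested. The median number of such transcripts was 21 per SR gene, and 3 per hnRNP gene, the same as the median of 3 over the protein-coding genes tested. The counts are per gene and pool all isoforms, so that exon choice was not measured here.

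Genes that act with these families gave 2 calls in 82 genes tested. Of the 83 listed genes in 7 groups, 0 were called higher and 2 lower, *Clk4* and *Snrnp70*, against 1.66% called lower among all genes. The number called lower was 9 with DESeq2 and 12 with limma-voom, which also called 1 higher. DESeq2 called 4.47% of 26283 genes, of which 20614 had an adjusted p, and limma-voom 11.2% of 19232 genes. It was 0 with library size only, without a filter and with limma on log2 CPM, 0 in 9 of 11 fits with a tumor left out, and 4 without PyMT *Pcbp1*–/– replicate 2. At an unadjusted p under 0.05, 4 were higher and 17 lower, and in 5 every PyMT *Pcbp1*–/– tumor was below every PyMT *Pcbp1*+/+ tumor, beside 8.19%, 10.5% and 2.02% of all genes. *Clk4*, a nuclear kinase that phosphorylates the arginine-serine tails of SR proteins, lay from 50.8 to 55.7 CPM with a median of 54.4 CPM in PyMT *Pcbp1*–/– tumors and, in the order of replicates 1 to 5, at 64.5, 65.6, 66.4, 72.8 and 63.6 CPM in PyMT *Pcbp1*+/+. The groups did not overlap, and the log2 fold change was -0.31 (SE 0.072, adjusted p = 0.0456) in edgeR's test. The other CLK kinases, named after their values were seen, had log2 fold changes of -0.22 (*Clk1*), -0.59 (SE 0.15, adjusted p = 0.0583) for *Clk2* and -0.35 (SE 0.093, adjusted p = 0.0686) for *Clk3*. All 4 were negative in each of the 21 alternatives, which reuse the same tumors, whereas the number called ranged from 0 to 4. In their list of 10 kinases and phosphatases, 3 genes had a positive estimate. *Ppp1ca* was among them (log2 fold change 0.23, SE 0.090, adjusted p = 0.203 with edgeR). *Snrnp70*, the core protein of the U1 particle that recognizes the 5′ splice site and contacts SR proteins, lay from 171 to 238 CPM with a median of 204 CPM in PyMT *Pcbp1*–/– tumors and, in the order of replicates 1 to 5, at 266, 309, 236, 291 and 259.7 CPM in PyMT *Pcbp1*+/+. Here the ranges met, since PyMT *Pcbp1*–/– replicate 2 was above the lowest PyMT *Pcbp1*+/+ tumor, and the log2 fold change was -0.41 (SE 0.095, adjusted p = 0.0466). Both calls stood near the threshold: edgeR's adjusted p was under 0.05 for *Clk4* in 1 and for *Snrnp70* in 1 of 11 fits with a tumor left out, where it ranged from 0.0499 to 0.114 and from 0.0338 to 0.110. *Clk4* kept its call without PyMT *Pcbp1*+/+ replicate 2 and *Snrnp70* without PyMT *Pcbp1*–/– replicate 2, and each lost it when any other tumor was left out. Of the 10 other settings, 5 called *Clk4* and 4 called *Snrnp70*.

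By group, the median log2 fold change was -0.084 over 10 SR kinases and phosphatases, -0.10 over 19 SR-related proteins and 0.039 over 14 genes of splice-site recognition. It was -0.025 over 9 tested hnRNPs with other symbols, 0.071 over 5 genes of SR import and mRNA export, -0.016 over 15 epithelial and tissue-specific splicing regulators and 0.021 over 10 genes of nonsense-mediated decay. Of the SR-related proteins, 15 of 19 had a negative estimate and 7 of these an unadjusted p under 0.05, with 0 called, beside 9619 of 19232 and 10.5% of all genes. The gene with the lowest p of this group was *Sfswap*, a regulator of splicing that also controls its own transcript (log2 fold change -0.29, SE 0.077, adjusted p = 0.0715). In the other groups without a call these were *Ptbp2*, the neuronal polypyrimidine tract protein (log2 fold change -0.26, SE 0.065, adjusted p = 0.0558), *Nxf1*, the mRNA export receptor (log2 fold change -0.27, SE 0.088, adjusted p = 0.129), *Khdrbs3*, a STAR-family RNA-binding protein (log2 fold change 0.47, SE 0.20, adjusted p = 0.228), and *Smg6*, the endonuclease of nonsense-mediated decay (log2 fold change -0.28, SE 0.073, adjusted p = 0.0693).

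Markers of mammary epithelium were present in both groups. The 10 luminal markers summed to 1928 ± 412 (SD, n = 6) against 1929 ± 279 (SD, n = 5) CPM, with *Cdh1* the most abundant and 0 of 10 called. *Elf5*, a luminal transcription factor, had the lowest p of this list (log2 fold change 0.25, SE 0.15, adjusted p = 0.398). The 8 basal markers summed to 129.7 to 443 CPM in PyMT *Pcbp1*–/– and 103 to 916 CPM in PyMT *Pcbp1*+/+ tumors with *Oxtr* on top, and 3 had a positive and 5 a negative log2 fold change. Their median was -0.12, but 0.24 with limma on log2(CPM + 1), 0.065 with limma-voom, 0.044 without PyMT *Pcbp1*–/– replicate 2 and 0.48 without PyMT *Pcbp1*+/+ replicate 1. The lowest p was that of *Krt14*, a basal keratin, which had a log2 fold change of -2.42 (SE 0.86, adjusted p = 0.160). *Krt14* reached 277 CPM in PyMT *Pcbp1*+/+ replicate 2 and at most 47.6 CPM in the other tumors, and without that replicate its log2 fold change was -0.60.

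Markers of dividing cells had positive estimates. All 20 had a log2 fold change above 0, with a median of 0.43, 11 had an unadjusted p under 0.05, beside 8.19% of all genes higher at that threshold, and 0 were called by edgeR. DESeq2 called 8 and limma-voom 13, beside 4.47% of 26283 genes (20614 with an adjusted p) and 11.2% of 19232 genes. In other settings edgeR called 1 with upper-quartile factors, 1 with the filter at 1 CPM and 2 with protein-coding genes only. These fits called 2.26%, 2.41% and 2.61% of the genes they tested. Without PyMT *Pcbp1*+/+ replicate 1, 16 of the 20 were above 0. EdgeR called 3 without PyMT *Pcbp1*–/– replicate 1 and 2 without PyMT *Pcbp1*+/+ replicate 2, beside 1.64% and 2.78% of the genes tested. Their summed level was 609.8 to 925 CPM in PyMT *Pcbp1*–/– tumors, with a median of 881 CPM, and 448, 729.7, 562, 691 and 619 CPM in the PyMT *Pcbp1*+/+ group, by replicate. In 5 of the 6 PyMT *Pcbp1*–/– tumors it was above every PyMT *Pcbp1*+/+ tumor, and replicate 1 lay inside the range of the other group. *Mki67* was the most abundant, and *Cdk1*, the kinase that drives entry into mitosis, had the lowest p (log2 fold change 0.56, SE 0.13, adjusted p = 0.0510). The part of cell division in the levels of the splicing factors was not tested.

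Fibroblast, endothelial and adipocyte markers gave 0 calls, with medians of 0.24 over 8, -0.18 over 8 and -0.80 over 5 genes tested. Their most abundant genes were *Col1a1*, *Cdh5* and *Fabp4*, with summed levels of 686 against 568, 70.2 against 80.6 and 10.9 against 17.4 CPM in the means of PyMT *Pcbp1*–/– and PyMT *Pcbp1*+/+ tumors. The direction of the adipocyte markers rested on PyMT *Pcbp1*+/+ replicate 3, whose sum was 58.2 CPM. The other PyMT *Pcbp1*+/+ tumors spanned 3.22 to 10.6 CPM, and PyMT *Pcbp1*–/– tumors 1.28 to 28.0 CPM. Without that replicate the adipocyte median was 0.58, which was the estimate of *Fabp4* itself and not a separate result. The lowest p values were those of *Col1a2* (log2 fold change 0.35, SE 0.21, adjusted p = 0.388), *Kdr* (log2 fold change -0.35, SE 0.21, adjusted p = 0.394) and *Fabp4* (log2 fold change -0.82, SE 0.80, adjusted p = 0.621). Lymphocyte markers were low: the 10 T cell markers summed to at most 11.6 CPM in any tumor, and 4 of them passed the filter on low counts. *Cd8a* was the most abundant, with 13 to 51 counts per tumor (log2 fold change -0.21, SE 0.41, adjusted p = 0.825). The 2 B cell markers analysed summed to at most 2.09 CPM, with *Pax5* the most abundant, and 0 of them passed the filter. No marker analysed was at 0 in all 11 tumors. A count of 3, the most that a count of 0 allows, was between 0.213 and 0.285 CPM, which covers counting error only.

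Promoters are shown for the pair of members with the most positive and the pair with the most negative estimates, so that the sequences of genes at both ends of the list can be read side by side. They are RefSeq windows of 250 bases before to 50 bases after a gene start on GRCm38.p6, given 5′ to 3′ on the gene's strand, and 28 of the 30 members matched. Where a gene had several starts, the window nearest to its start in the deposited table was taken. Capitals mark matches on either strand to any of 4 motifs. The E-box, bound by MYC and related factors, was searched as CACGTG. The core bound by ETS factors was searched as CCGGAAG. The NF-Y box was searched as CCAAT and can lie next to any of the others. The TATA box was searched as TATAAA. *Hnrnpd* is on the minus strand at chr5:99978889-99979188, *Hnrnpa1* on the plus strand at chr15:103240147-103240446, *Srsf5* on the plus strand at chr12:80945249-80945548 and *Srsf11* on the minus strand at chr3:158036557-158036856.
Hnrnpd: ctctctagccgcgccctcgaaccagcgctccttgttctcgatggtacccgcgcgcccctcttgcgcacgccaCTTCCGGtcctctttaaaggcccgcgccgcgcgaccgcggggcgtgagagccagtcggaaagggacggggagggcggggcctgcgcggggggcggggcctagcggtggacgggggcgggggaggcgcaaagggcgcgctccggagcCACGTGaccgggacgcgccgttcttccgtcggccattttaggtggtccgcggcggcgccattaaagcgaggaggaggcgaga
Hnrnpa1: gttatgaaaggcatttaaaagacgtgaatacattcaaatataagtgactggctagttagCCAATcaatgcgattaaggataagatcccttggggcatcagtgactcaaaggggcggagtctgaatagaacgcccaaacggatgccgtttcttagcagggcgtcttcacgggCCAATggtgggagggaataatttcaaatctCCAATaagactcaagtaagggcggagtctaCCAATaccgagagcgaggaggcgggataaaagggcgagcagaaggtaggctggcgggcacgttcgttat
Srsf5: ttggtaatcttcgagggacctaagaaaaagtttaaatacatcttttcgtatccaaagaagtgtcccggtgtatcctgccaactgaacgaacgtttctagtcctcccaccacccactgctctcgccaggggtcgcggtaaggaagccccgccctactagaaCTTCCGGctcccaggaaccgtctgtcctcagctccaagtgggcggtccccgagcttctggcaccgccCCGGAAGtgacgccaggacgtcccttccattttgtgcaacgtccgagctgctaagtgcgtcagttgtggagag
Srsf11: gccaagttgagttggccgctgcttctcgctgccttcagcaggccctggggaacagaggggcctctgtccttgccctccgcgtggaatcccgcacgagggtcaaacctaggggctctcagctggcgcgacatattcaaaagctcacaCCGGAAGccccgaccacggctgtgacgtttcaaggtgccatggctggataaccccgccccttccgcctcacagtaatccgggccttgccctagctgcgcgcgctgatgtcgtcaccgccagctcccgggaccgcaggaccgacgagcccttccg

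The *Hnrnpa1* window held 4 NF-Y boxes and none of the other motifs. The *Hnrnpd* window held 1 E-box and 1 ETS core, and ETS cores were found 2 times in the *Srsf5* and 1 time in the *Srsf11* window. Over the members, the E-box was found in 4 of 28 windows, the ETS core in 6, the NF-Y box in 15 and the TATA box in 4, or 14.3%, 21.4%, 53.6% and 14.3%. Among all 32851 RefSeq windows of this length the shares were 7.15%, 8.86%, 37.4% and 13.6%. That set holds every listed start of a gene, whereas each member has 1 window, so the sets are not alike. The windows of *Hnrnpl* and *Hnrnpm* lay 2349 and 1402 bases from the start in the deposited table. The members' windows were richer in G and C, with a median of 66.7% against 52.7%. A match describes these letters and not binding of a factor.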

How the data were processed

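The authors extracted RNA with Trizol and phenol chloroform, made poly(A)-enriched stranded libraries and sequenced them paired-end on a NovaSeq. The submitters' processing notes name FastQC, Bowtie2, Partek and the GRCm38 build, and the counting method, its use of strand and the annotation version are not given in the sources used here. The deposited estimated counts per gene need not be whole and were rounded to whole numbers for testing. The deposited CPM values are those estimated counts scaled by the authors to 1000000 per tumor. All columns of values were mapped to a tumor by its title, and the labels give a single batch date for all tumors.

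Tumors were grouped by genotype as labelled, and all 11 entered a single fit over every gene. edgeR 4.0.16 (R 4.3.3) gave log2 fold changes of PyMT *Pcbp1*–/– against PyMT *Pcbp1*+/+ with TMM factors, filterByExpr and the quasi-likelihood test, with Benjamini-Hochberg adjustment over the 19232 genes tested and calls at an adjusted p under 0.05. The script was tested on simulated data. Library measures were compared by two-sided exact permutation tests over all 462 splits. Structural RNA held rRNA, snRNA, snoRNA and similar classes of nuclear genes with any gene within 10 kb of the rRNA gene. The labels do not say that the tumors came from separate mice, so p-values measure the spread between these samples, which may be technical.

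Alternatives were DESeq2 1.42.0, limma 3.58.1 (voom with sample quality weights, and limma on log2 of CPM plus 1 or plus 0.1), library size only, upper-quartile factors, no filter, at least 1 CPM in at least 5 tumors, protein-coding genes only, the replicate number as a block, and each of the 11 tumors left out in turn. Those for the other lists, the markers, the family medians and the library measures were chosen after seeing the data. The 5 members with the most positive and the 5 with the most negative estimates and the most abundant member of each subfamily were named with values. In each other list, genes with an adjusted p under 0.05 were named, up to 5 in each direction, and otherwise the gene with the lowest p. The members and the lists were chosen with earlier results of these data known. Macrophage markers are not reported here.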

Additional observations from a re-analysis of the deposited data

Results flagged for a closer look

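In 5 of 72 groups of tumors checked, a single tumor stood far from the others of its genotype by Dixon's criterion, which chance alone meets in about 1 of 20 groups. PyMT *Pcbp1*–/– replicate 2 was that tumor in 4 of them. Its *Srsf11* level of 192 CPM was the highest of its group, against 123 to 143 CPM in the other 5 tumors. Its *Hnrnpd* level of 44.4 CPM was also the highest, against 34.4 to 37.9 CPM. Its *Srsf4* level of 31.8 CPM was the lowest, against 40.6 to 44.8 CPM, and its structural RNA share of 24.3% was the lowest, against 27.1% to 28.6%. PyMT *Pcbp1*+/+ replicate 1 had the highest *Hnrnpul2* level of its group, 97.8 CPM against 75.1 to 78.8 CPM in the other 4 tumors.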

How the results depend on the processing

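*Pcbp1* was called lower in all 21 alternatives, with log2 fold changes from -3.60 to -3.34. The number of members called higher was 1 with DESeq2 (*Hnrnpd*), 4 with limma-voom and 0 to 1 with a tumor left out, and the number called lower was 3 with limma-voom and 0 to 1 with a tumor left out. The other alternatives called 0 in both directions. The single calls were *Hnrnpd* without PyMT *Pcbp1*+/+ replicate 2 and *Srsf11* without PyMT *Pcbp1*–/– replicate 2. Limma-voom gave its lowest sample weights to PyMT *Pcbp1*+/+ replicate 2 (0.348) and PyMT *Pcbp1*–/– replicate 2 (0.510). The cause of these differences was not tested. The median log2 fold change of the members ranged from -0.0086 to 0.033 with a tumor left out.

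The estimates of 4 named members and 2 markers changed sign. *Srsf2* was -0.0035 and *Hnrnpa2b1* -0.0061 with upper-quartile factors, *Hnrnpa2b1* was -0.00035 with the filter at 1 CPM, and *Hnrnph1* was 0.027 with limma-voom. With a tumor left out, the log2 fold change ranged from -0.045 to 0.038 for *Srsf2*, -0.020 to 0.031 for *Hnrnpa2b1*, -0.0058 to 0.067 for *Hnrnpu*, -0.39 to 0.088 for *Cd8a* and -1.53 to 0.58 for *Fabp4*. *Cd8a* and *Fabp4* had larger estimates than these members, -0.21 and -0.82 with all tumors, and *Fabp4* turned without PyMT *Pcbp1*+/+ replicate 3. The cause was not tested. The other 12 named members had the same sign in all 21 alternatives.

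Over all genes, edgeR called 117 higher and 319 lower, DESeq2 476 and 700, and limma-voom 968 and 1190, so that the share of calls that were higher was 26.8%, 40.5% and 44.9%. With a tumor left out, 41 to 187 were called higher and 144 to 389 lower.

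With the replicate number as a block, 10 tumors were used, 0 members were called higher and 0 lower, 4 were higher and 1 lower at an unadjusted p under 0.05, the median log2 fold change of the members was 0.034 and that of the SR genes -0.013, and 42 genes were called higher and 118 lower over all genes. *Clk4* and *Snrnp70* had adjusted p values of 0.115 and 0.112 in this block fit, where 0 of the other splicing genes were called. Deviations of same-numbered tumors correlated by 0.134, 0.0867, -0.079, -0.144 and 0.293. Replicate 5 was the best match of its own number in both directions, but not every tumor correlated best with its own number. These few correlations cannot decide whether same-numbered tumors share more than a number.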
